A study of Mus musculus with 12 samples.

Results

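The comparison described here set the hypothalamus of mice given both aspartame and an NMDAR antagonist (ASP+CGP) against that of untreated control mice (CON). It used all 3 ASP+CGP arrays and all 3 CON arrays of the 12 arrays in the series, chosen by their labels, and covered every gene with a probe set of a single symbol and a signal above the minimum, which left 17186 genes. All mice were males of the strain C57Bl/6J and were 21 weeks old. ASP+CGP mice were exposed to aspartame in the drinking water, before birth through their mothers and then through adult life. Their own mean intake was estimated at about 46 mg/kg. These mice were also exposed to the competitive NMDAR antagonist CGP 39551, which their mothers drank at 5 mg/kg until postnatal day 28. CON mice received neither agent. The remaining arrays held the single treatments, with 3 arrays of mice given aspartame alone (ASP) and 3 of mice given the antagonist alone (CGP). The hypothalamus was cut out as a block, and each group's mice contributed to a single RNA pool that was hybridized to 3 arrays. Adjusted p-values thus reflect how repeat arrays vary, not how mice vary. A treatment and any other way in which a pair of pools differed, such as where the blocks were cut, cannot be told apart.

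The hypothalamus sits above the pituitary gland and controls it through releasing hormones that travel in portal blood, while the anterior pituitary answers with growth hormone, prolactin, the gonadotropins, thyrotropin and adrenocorticotropic hormone. Neurons of the arcuate nucleus also make Pomc, the precursor that corticotrophs of the pituitary use, whereas prolactin, growth hormone and gonadotropin transcripts belong in the main to pituitary cells. NMDA receptors are glutamate-gated cation channels that carry excitatory transmission and shape synapses during development. The block touches the pituitary stalk and the thalamus, and membranes of the meninges cover its lower face.

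Differentially expressed genes (DEGs) were those with a Benjamini-Hochberg adjusted p under 0.05 in limma over all genes together with a more than 1.4-fold difference, up or down. By this rule 31 genes differed between ASP+CGP and CON, 0.180% of the genes tested. Of these, 7 were upregulated (0.0407%) and 24 downregulated (0.140%) in ASP+CGP. By the adjusted p alone, 300 genes passed (1.75%), of which 142 rose (0.826%) and 158 fell (0.919%), a split that became 228 higher and 135 lower once the arrays were set to the same median. A gene that passed the adjusted p alone is said below to have risen or fallen without being a DEG. In 15161 genes, 88.2%, the difference was under 1.1-fold, and the median log2 fold change over all genes was −0.0043. On the 31 DEGs the ASP+CGP and CON arrays did not overlap, as was the case for 17.3% of all genes (7.15% with ASP+CGP higher and 10.2% with it lower).

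Among the downregulated DEGs, Prl, Gh and Cga, hormone genes of the anterior pituitary, fell furthest. The others included further hormone genes, the glycine transporter gene Slc6a5, the vasopressin gene Avp and genes of meningeal fibroblasts. They also held 4 miRNA genes of 1 imprinted cluster on chromosome 12. Bpifa1, Lcn2 and Cyp2f2 came from a secretory epithelium list of 14 genes, with 7 above and 7 below 0 and a median of −0.0011. The upregulated DEGs were genes of cerebellar granule cells (Cbln3, Neurod1, Gabra6), the synaptic priming gene Unc13c, the thalamic and habenular genes Ramp3 and Gpr151, and the choroid plexus gene Ttr. Of 19 genes that the study named for this treatment on the same samples, 3 were upregulated and 16 downregulated DEGs, which is no independent evidence of their direction. The 19 left out mir376c, which the study also listed as lower, and took its Cyp2f1 as Cyp2f2.

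Because 4 DEGs were miRNA genes from the interval between Dlk1 and Dio3, the mature miRNAs that they encode are shown here, together with those of Mir411, the neighbour of Mir379. Sequences are from RefSeq (GRCm38.p6, plus strand of chromosome 12) and run 5′ to 3′, and the capitals mark the seed, bases 2 to 8, with which a miRNA pairs to its targets. The array measured the hairpin gene and not the mature strands.
miR-379-5p (chr12:109709065-109709085): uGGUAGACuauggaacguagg
miR-379-3p (chr12:109709102-109709123): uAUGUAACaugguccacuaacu
miR-411-5p (chr12:109710190-109710210): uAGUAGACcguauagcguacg
miR-411-3p (chr12:109710225-109710246): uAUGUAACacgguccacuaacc
miR-380-5p (chr12:109711806-109711827): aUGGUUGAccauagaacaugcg
miR-380-3p (chr12:109711842-109711863): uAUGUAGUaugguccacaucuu
miR-376b-5p (chr12:109723471-109723492): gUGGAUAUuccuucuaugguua
miR-376b-3p (chr12:109723508-109723528): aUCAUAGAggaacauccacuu
miR-300-5p (chr12:109724318-109724339): uUGAAGAGagguuauccuuugu
miR-300-3p (chr12:109724363-109724384): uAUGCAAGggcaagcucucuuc
The seed AUGUAAC was shared by miR-379-3p and miR-411-3p. No other seed was held by more than 1 gene among the 69 mature sequences of the 36 measured miRNA genes of the interval, which had 68 distinct seeds.

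The genes of the peptide hormones of the pituitary were lower in ASP+CGP than in CON, and 6 of 7 were DEGs. Their median log2 fold change was −1.67. Prl, which encodes prolactin, had log2 RMA signals of 7.54, 7.24 and 8.04 in ASP+CGP and 10.80, 10.67 and 11.03 in CON. Every ASP+CGP array thus lay far below every CON array. The fall was 9.33-fold (log2 fold change −3.22 ± 0.14 SE, adjusted p = 2.3e-08 in limma). Gh, the growth hormone gene, gave 11.04, 10.97 and 11.05 in ASP+CGP, against 13.34, 13.36 and 13.30 in CON. Its 4.96-fold fall was the most precise of the group (−2.31 ± 0.04, adjusted p = 2.51e-13).

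Cga, which encodes the alpha subunit common to luteinizing hormone, follicle-stimulating hormone and thyrotropin, had signals of 9.39, 9.29 and 9.79 in ASP+CGP and 11.41, 11.43 and 11.67 in CON. That is a 4.04-fold fall (−2.01 ± 0.10, adjusted p = 9.36e-08). Pomc, the precursor of adrenocorticotropic hormone and the melanocortins, fell 3.18-fold, with 9.25, 9.20 and 9.18 in ASP+CGP against 10.84, 10.88 and 10.91 in CON (−1.67 ± 0.04, adjusted p = 3.12e-11). The beta subunits of the gonadotropins fell less. Lhb gave 8.49, 8.25 and 8.64 in ASP+CGP and 9.20, 9.23 and 9.58 in CON, a 1.84-fold difference, and Fshb gave 7.24, 7.38 and 7.45 in ASP+CGP and 8.12, 8.14 and 8.27 in CON, a 1.77-fold difference. Tshb, the beta subunit of thyrotropin, was the only hormone gene that did not pass the test, although its arrays did not overlap, with 6.84, 6.72 and 6.89 in ASP+CGP and 6.98, 7.06 and 7.14 in CON (−0.24 ± 0.09, adjusted p = 0.205).

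**Figure D1:**
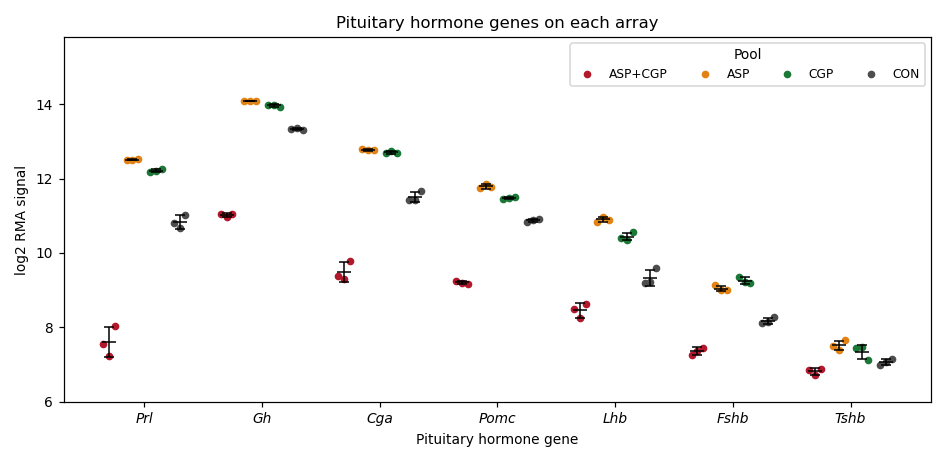
Log2 RMA signal (y axis) of 7 pituitary hormone genes (x axis), with a point per array in the ASP+CGP, ASP, CGP and CON pools, with bars for mean ± SD of 3 arrays. The ASP+CGP arrays lie below those of all other pools, for Prl at 7.24 to 8.04 against 10.67 to 11.03 in CON, while the ASP and CGP arrays lie above the CON arrays for all but 1 CGP array of Tshb.

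In the pool of either agent alone the same genes had means above CON. For Tshb the difference did not pass the test in CGP (0.28, adjusted p = 0.229 in limma) and was under 1.4-fold in ASP. The 3 comparisons share the CON arrays, and their values are set side by side. The log2 fold change of Prl was −3.22 in ASP+CGP, 1.68 in ASP and 1.38 in CGP, that of Gh was −2.31, 0.75 and 0.63 in the same order, and that of Cga was −2.01, 1.27 and 1.20. Set directly against the single treatments, all 7 hormone genes were downregulated in ASP+CGP relative to ASP, where 1.24% of all genes were called lower, and all 7 relative to CGP (0.134% of genes). For Prl the log2 difference was −4.90 ± 0.14 from ASP and −4.61 ± 0.14 from CGP. The interaction, which is the ASP+CGP minus ASP difference less the CGP minus CON difference, was called for all 7, against 1.50% of all genes, and ran from −6.28 for Prl to −0.98 for Tshb.

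Receptors and factors of the pituitary hormone cells showed no such fall. Of 23 measured members, 0 were DEGs in limma and 1 fell at the adjusted p alone, and the median was −0.03. That member, which passed no longer in most fits with 1 array left out, was Dlk1 (−0.22 ± 0.05, adjusted p = 0.0381), a Notch family ligand of somatotrophs that vasopressin neurons also make. Ghrhr, the somatotroph receptor for growth hormone-releasing hormone, averaged 8.49 in ASP+CGP and 8.59 in CON (−0.10 ± 0.06, adjusted p = 0.444), but lay 0.81 above CON in ASP and 0.65 above it in CGP. Gnrhr, the gonadotroph receptor, averaged 5.86 in ASP+CGP and 5.89 in CON, both under the signal minimum of 6. Of the 7 measured markers of pituitary tissue, Ghrhr was the only one outside the hormone genes, and the log2 sum over the 7, mostly Gh, spanned 11.86 to 12.09 on the ASP+CGP arrays and 13.98 to 14.06 on the CON arrays. Less pituitary tissue in the pool and less hormone RNA per pituitary cell cannot be told apart in these data.

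Since these genes moved together, the 250 bases before their RefSeq transcription start (GRCm38.p6) were searched on both strands for the letters TATNCAT, a short form of the site of POU1F1, the factor of somatotrophs, lactotrophs and thyrotrophs, and CAAGGNC, that of SF-1, the gonadotroph factor. The windows of Prl, Cga and Lhb are printed 5′ to 3′ on the strand of the gene, with matches in capitals.
Prl (chr13:27057320-27057569, plus strand): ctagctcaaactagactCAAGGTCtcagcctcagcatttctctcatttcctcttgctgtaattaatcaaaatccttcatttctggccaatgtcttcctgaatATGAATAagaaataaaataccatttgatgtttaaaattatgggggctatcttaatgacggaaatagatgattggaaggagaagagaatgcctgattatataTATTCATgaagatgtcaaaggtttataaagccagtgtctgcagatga
Cga (chr4:34893529-34893778, plus strand): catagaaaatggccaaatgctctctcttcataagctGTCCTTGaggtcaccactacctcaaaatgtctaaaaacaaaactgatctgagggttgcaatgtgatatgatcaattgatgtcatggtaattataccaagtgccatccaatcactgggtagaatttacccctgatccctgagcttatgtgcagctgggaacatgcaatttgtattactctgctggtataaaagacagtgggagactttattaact
Lhb (chr7:45420696-45420945, plus strand): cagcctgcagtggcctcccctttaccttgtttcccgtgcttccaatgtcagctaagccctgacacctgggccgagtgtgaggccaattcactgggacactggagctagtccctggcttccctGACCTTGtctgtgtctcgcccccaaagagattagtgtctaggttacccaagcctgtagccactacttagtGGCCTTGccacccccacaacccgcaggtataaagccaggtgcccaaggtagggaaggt
Prl held 2 POU1F1 matches, ending 142 and 41 bases before the start, and 1 SF-1 match. Cga held 1 SF-1 match and Lhb held 2. The windows of Fshb, Tshb and Pomc contained neither string, and the Gh window was not analysed here. A POU1F1 string occurred in 7.92% of 32851 windows of this length and an SF-1 string in 15.0%, so a match describes the letters only.

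The list of genes for hypothalamic control of the pituitary held Ghrh, Sst, Trh, Crh, Gnrh1, Th, Kiss1, Tac2, Pdyn and Npvf. Of these 10 genes, 1 fell and 0 were DEGs. Trh, which encodes thyrotropin-releasing hormone, had signals of 10.61, 10.60 and 10.55 in ASP+CGP and 10.89, 10.87 and 10.90 in CON (−0.30 ± 0.04, adjusted p = 0.00101). The corticotropin-releasing hormone gene Crh had −0.06, the gonadotropin-releasing hormone gene Gnrh1 −0.04, Ghrh −0.11 and the somatostatin gene Sst −0.12, and none of them passed the test. For Trh the single treatments stood at −0.24 in ASP and −0.27 in CGP relative to CON, and the test of ASP+CGP against ASP or CGP did not pass (adjusted p = 0.4 and 0.755).

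Vasopressin and oxytocin, which magnocellular neurons carry to the posterior pituitary, were both lower. Avp had 10.70, 10.71 and 10.72 in ASP+CGP and 11.26, 11.25 and 11.26 in CON, a 1.46-fold fall (−0.55 ± 0.04, adjusted p = 1.35e-05). Oxt had 11.75, 11.75 and 11.80 in ASP+CGP and 12.04, 12.12 and 12.25 in CON (−0.38 ± 0.05, adjusted p = 0.0015). The 3 arrays of each pool were almost identical for Avp, and no ASP+CGP array came near a CON array for either gene. Of the 10 genes of these neurons, 3 fell, Dlk1 being the other one, with a median of −0.14. Avp stood at −0.50 in ASP and −0.35 in CGP, and ASP+CGP did not pass the test against ASP (−0.05 ± 0.04, adjusted p = 0.526) or CGP (−0.20, adjusted p = 0.0518).

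Among 18 measured feeding and arousal peptides and enzymes, 3 fell, 1 rose and 0 were DEGs. Npy, the arcuate peptide that stimulates feeding, had 10.94, 10.94 and 11.26 in ASP+CGP against 11.36, 11.39 and 11.65 in CON (−0.42 ± 0.09, adjusted p = 0.0232). The third array was the highest of its pool in both groups, and the ranges still did not meet. Npy was higher in ASP than in CON (0.54 ± 0.09), and ASP+CGP was a DEG against ASP (−0.97, adjusted p = 4.22e-06). Hdc, which makes histamine in the tuberomammillary nucleus, fell by 0.35, and Hcrt, the orexin precursor, fell by 0.18. Rln3, the relaxin-3 gene of brainstem neurons, rose (0.38 ± 0.07). The appetite-suppressing Cartpt had −0.20 ± 0.06, which did not pass (adjusted p = 0.142). Without the first or second ASP+CGP array 1 of the genes fell, and without the first or second CON array 0 rose. Of 23 hypothalamic transcription factors, Fezf1 (−0.27) and Bsx (−0.23) fell, factors of the ventromedial and arcuate nuclei, and Lhx8 rose (0.23), with a median of −0.08. Without the second CON array 1 of these factors fell, without the first ASP+CGP or first CON array 0 rose, and with the ASP+CGP and CON arrays alone 0 passed. None of 17 receptors for metabolic hormones passed the test (median −0.07).

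The hypothalamic identity of the blocks was checked on 16 measured marker genes, Npy, Pomc, Avp and Trh among them. Their mean log2 signal was 10.01 to 10.05 on the ASP+CGP arrays and 10.28 to 10.38 on the CON arrays, the lowest being Rax at 7.34 in ASP+CGP and 7.32 in CON. Of these markers 6 fell and 0 rose. Those that fell were Npy, Pomc, Avp, Oxt, Trh and Hcrt, and Pomc, with the largest change (−1.67), was also counted among the pituitary hormone genes. Relative to CON, Avp, Oxt, Trh and Hcrt were lower in ASP and CGP too. Hmx2 (0.04), Hmx3 (−0.04) and Rax (0.02) hardly differed. Across 4 neuronal markers the mean was 12.44 to 12.47 in ASP+CGP and 12.39 to 12.44 in CON, and 0 of 4 passed the test.

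Thalamic genes were higher in ASP+CGP. Of 18 measured, 1 was a DEG and 11 rose, with a median of 0.29, whereas 0.826% of all genes rose. The DEG was Ramp3, a partner of calcitonin-family receptors, with 10.45, 10.44 and 10.45 in ASP+CGP and 9.91, 9.91 and 10.02 in CON, a 1.41-fold difference (0.50 ± 0.04, adjusted p = 3.14e-05). Prkcd, a protein kinase C isoform of thalamic relay neurons, had 11.19, 11.17 and 11.09 in ASP+CGP and 10.67, 10.72 and 10.67 in CON (0.47 ± 0.04, adjusted p = 5.52e-05). The transcription factors Lhx9 (0.42 ± 0.05), Gbx2 (0.35 ± 0.05), Tcf7l2 and Lef1 (0.33 ± 0.04 each), which pattern the thalamus, rose with them. These genes were also above CON in the single treatments, Prkcd by 0.33 in ASP and 0.42 in CGP, and none of the 18 was a DEG in ASP+CGP against ASP or against CGP. With the ASP+CGP and CON arrays fitted alone 5 genes rose, and without the third array of both groups 14 did. Ramp3 fell below the fold threshold without the first or the second CON array (0.48 each).

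The habenula, which borders the thalamus, gave a similar picture. Of 15 genes, 6 rose, 1 of them a DEG, with a median of 0.24. Gpr151, an orphan receptor of habenular neurons, had 8.06, 8.06 and 7.93 in ASP+CGP and 7.75, 7.38 and 7.43 in CON (0.50 ± 0.08, adjusted p = 0.0047). The first CON array stood well above the other two, and the groups did not overlap. Chrnb4, a nicotinic receptor subunit, had 8.79, 8.81 and 8.81 in ASP+CGP and 8.36, 8.41 and 8.26 in CON (0.46 ± 0.05), and its partner Chrna3 rose by 0.35. Pou4f1, a habenular transcription factor, rose by 0.33. In CGP the values relative to CON were 0.81 for Gpr151 and 0.79 for Chrnb4. Set against CGP, Chrnb4 was lower in ASP+CGP (−0.33, adjusted p = 0.00202), and Gpr151 did not pass (−0.32, adjusted p = 0.0846). The count of habenula genes that rose was 1 with the ASP+CGP and CON arrays alone, 3 without the first CON array and 9 without the third array of both groups. Gpr151 missed the fold threshold without the first or the second ASP+CGP array (0.48 each) and without the second or the third CON array (0.43 and 0.45). With array weights it had 0.44, and with the ASP+CGP and CON arrays alone it did not pass the test (adjusted p = 0.0987).

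**Figure D2:**
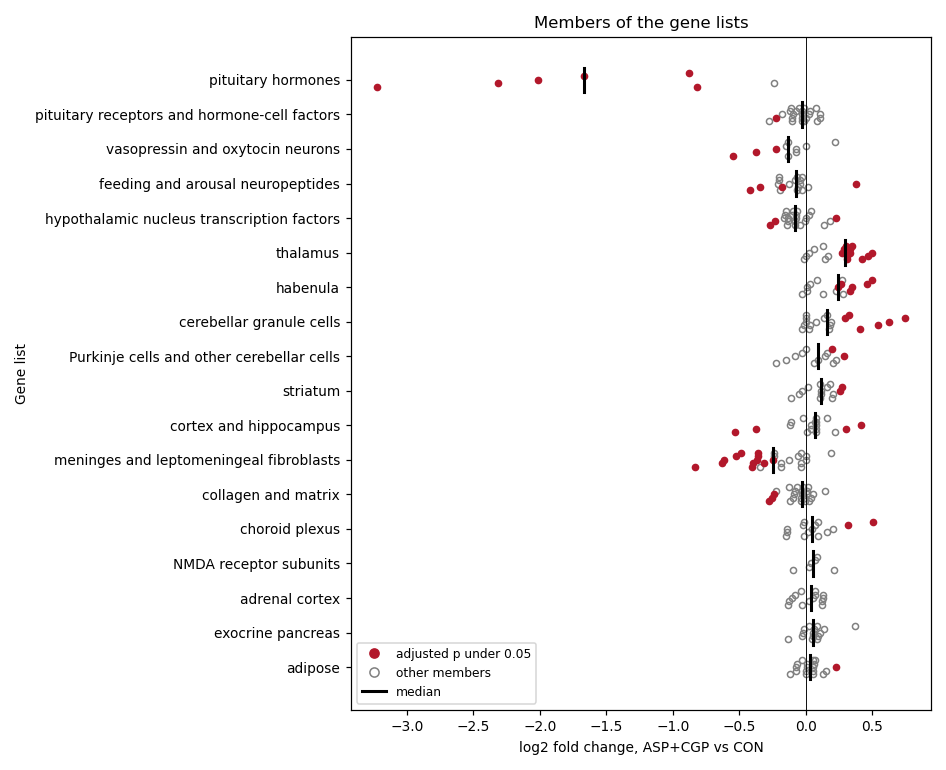
Log2 fold change of ASP+CGP vs CON (x axis) for the measured members of 18 gene lists (y axis); filled points passed an adjusted p under 0.05, open points did not, and the bar is the list median. The hormone list reaches −3.22, 17 of 18 thalamus and 14 of 15 habenula genes lie above 0 with medians of 0.29 and 0.24, and 24 of 25 meninges genes lie below 0 with a median of −0.25.

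Of the 7 upregulated DEGs, Cbln3, Neurod1 and Gabra6 are genes of cerebellar granule cells, but Gabra6 passed the filter on low signals only through the ASP+CGP arrays. Cbln3, a cerebellin secreted by granule cells, had 7.60, 7.90 and 7.80 in ASP+CGP and 6.83, 7.06 and 7.18 in CON, a 1.67-fold rise and the highest log2 value of all genes (0.74 ± 0.10, adjusted p = 0.00157). Neurod1, a neuronal differentiation factor, had 7.74, 7.92 and 7.88 in ASP+CGP and 7.39, 7.16 and 7.11 in CON (0.63 ± 0.07, adjusted p = 0.000391). Gabra6, the GABA-A receptor subunit typical of granule cells, had 6.43, 6.50 and 6.55 in ASP+CGP and 5.85, 5.84 and 6.16 in CON (0.54 ± 0.09, adjusted p = 0.00461), and its CON mean lay under the signal minimum of 6. With values under 6 set to 6 the difference was 0.44 and missed the fold threshold. It also missed it without the second CON array (0.48). Cbln3 and Gabra6 were DEGs against ASP (0.85 and 0.66) and against CGP (0.83 and 0.53) as well. Neurod1 was higher than in ASP (0.45, adjusted p = 0.00145) but did not pass against CGP (0.32, adjusted p = 0.0636).

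Of the 19 genes of the granule cell list, 6 rose and the median was 0.16. Cbln3, Neurod1 and Gabra6 were among them, although Gabra6 passed the signal filter only through the ASP+CGP arrays. The study had already named Cbln3 and Neurod1 as higher on the same samples. The others that rose were Zic1 (0.41 ± 0.04), Gabrd, the GABA-A delta subunit (0.32 ± 0.04), and Etv1 (0.29 ± 0.06). Zic1 is also made in the thalamus and stood 0.24 above CON in ASP and 0.38 above it in CGP. Unc13c, a vesicle priming protein that granule cells express strongly, had 9.96, 10.05 and 9.97 in ASP+CGP and 9.46, 9.37 and 9.57 in CON (0.53 ± 0.05, adjusted p = 8.2e-05). It was higher in ASP+CGP on all 7 of its probe sets, by 0.14 to 0.53, and it missed the fold threshold with the probe sets averaged (0.33) or without the second CON array (0.48). Purkinje and other cerebellar genes gave 2 that rose of 13, Gdf10 and Rora, and 0 DEGs, but only 1 rose without any single ASP or CGP array or without the first or second array of ASP+CGP or CON. Of 8 markers of cerebellar tissue, Cbln3, Neurod1 and Gabra6 rose, while Pcp2 (0.20), Fat2 (0.14) and Cbln1 (−0.02) did not pass, nor did Calb2 and Barhl1, both with log2 fold changes of 0.00. The mean over the 8 was 8.42 to 8.47 on the ASP+CGP arrays and 8.15 to 8.19 on the CON arrays, and their log2 sum, mostly Calb2, was 13.04 to 13.05 in ASP+CGP and 13.00 to 13.01 in CON. Whether cerebellar tissue in the pool had a part in these values was not tested.

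Genes of the meninges were mostly lower in ASP+CGP. Of 25 measured members 12 fell, 4 of them DEGs, 24 lay below 0 and the median was −0.25. Over all 17186 genes 0.919% fell, 0.140% were downregulated DEGs and 8935 genes lay below 0. The study had already named Prg4, Fmod and Dapl1 as lower on the same samples, and the list was chosen with this known. The counts of the list are thus a description. Prg4, the lubricating proteoglycan 4, had 7.75, 7.72 and 7.87 in ASP+CGP and 8.54, 8.57 and 8.72 in CON, a 1.78-fold fall (−0.83 ± 0.06, adjusted p = 9.96e-06). Fmod, the collagen-binding fibromodulin, had 8.73, 8.70 and 8.81 in ASP+CGP and at least 9.35 in CON (−0.63 ± 0.05, adjusted p = 2.34e-05). For both genes the highest ASP+CGP array lay far below the lowest CON array. Dapl1 (−0.62 ± 0.07) and Slc6a13 (−0.53 ± 0.04), a GABA and taurine transporter of leptomeningeal cells, were the other DEGs.

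The 8 further meningeal genes that fell were transporters, Slc13a4 for sulfate (−0.37), Slc47a1 (−0.36) and Slc22a6 for organic anions (−0.25), the matrix and growth factor genes Mgp (−0.48), Igf2 (−0.40), Islr (−0.40) and Dcn (−0.36), and Aldh1a2 (−0.31), which makes retinoic acid. The fall was also seen against the single treatments. Prg4 had −0.44 relative to ASP and −0.46 relative to CGP (adjusted p = 6e-04 and 0.00202), while ASP and CGP themselves stood at −0.40 and −0.37 relative to CON. Against ASP 3 members were DEGs, Dapl1, Dcn and Ogn, beside 1.27% of all genes. In ASP itself these stood above CON, Dapl1 by 0.12, Dcn by 0.46 and Ogn by 0.27. Ogn did not pass in ASP+CGP vs CON (adjusted p = 0.0514 in limma). Against CGP 2 members were DEGs, Fmod and Dapl1, beside 0.163% of all genes. The list medians in ASP and CGP relative to CON were both −0.03. On each of the 3 ASP+CGP arrays the median over the list lay between −0.29 and −0.24 from the CON mean, and on the other 9 arrays between −0.04 and 0.03. Fewer meningeal cells in the pool and less RNA per cell cannot be told apart.

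Of 24 collagen and matrix genes 3 fell, Fn1, Bgn and Vtn, with 0 DEGs, and 1 did without the second CON array and 0 with the ASP+CGP and CON arrays alone. Serping1, which encodes the C1 inhibitor of complement, was a DEG outside the lists, at 8.79, 8.74 and 8.85 in ASP+CGP and 9.31, 9.30 and 9.35 in CON (−0.53 ± 0.04, adjusted p = 2.28e-05), while it stood at 0.32 in ASP. Among antigen presentation and microglial genes 3 of 21 fell, H2-Aa (−0.43), Cd74 (−0.25) and C4b (−0.22), but 1 did without the first or second ASP+CGP array or the first CON array. Cd74 stood at 1.49 in ASP. Of 15 choroid plexus genes 2 rose, Ttr and the transcription factor gene Otx2 (0.32). Ttr, the thyroxine carrier of choroid plexus epithelium, had 12.19, 12.19 and 12.41 in ASP+CGP and 11.71, 11.68 and 11.90 in CON (0.50 ± 0.07, adjusted p = 0.000975 in limma). It dropped below the fold threshold without the third ASP+CGP array (0.43) or the first or second CON array (0.48 and 0.46). Relative to CON, Ttr stood at 0.74 in ASP and 0.42 in CGP. ASP+CGP was lower than ASP (−0.24, adjusted p = 0.0439) and did not pass against CGP (0.08, adjusted p = 0.608). The other 4 markers of choroid plexus did not pass, with Folr1 at 0.09, Kcne2 at 0.07, Clic6 at 0.05 and Kl at −0.14. The log2 sum over all 5, mostly Ttr, was 12.43 to 12.62 in ASP+CGP and 12.02 to 12.19 in CON, and their mean was 8.54 to 8.65 in ASP+CGP and 8.42 to 8.53 in CON.

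**Figure D3:**
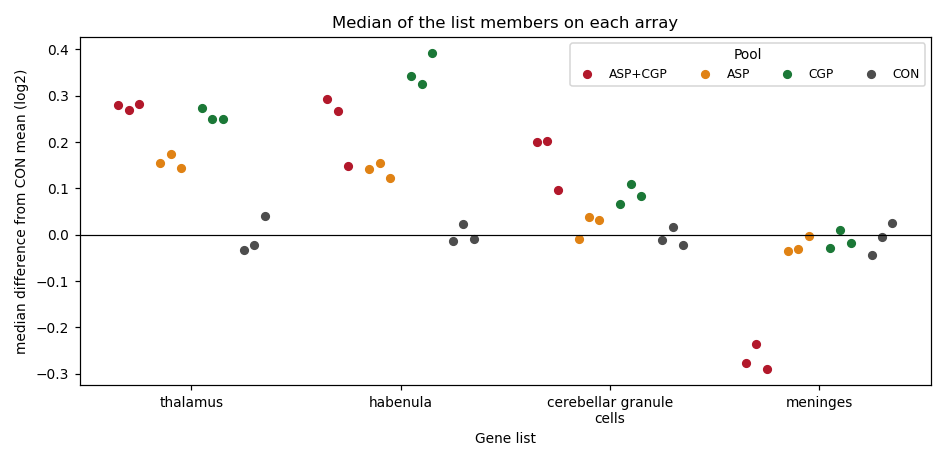
Median over the members of 4 gene lists (x axis) of the log2 difference from the CON mean (y axis), with a point for each array of the ASP+CGP, ASP, CGP and CON pools. For the meninges list the ASP+CGP arrays lie at −0.29 to −0.24 and stand apart from the other 9 arrays, whereas for the thalamus list they lie at 0.27 to 0.28 beside the CGP arrays at 0.25 to 0.27.

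Slc6a5, the transporter that returns glycine to inhibitory terminals, was the only gene over 2-fold outside the pituitary hormones. It had 7.43, 7.51 and 7.65 in ASP+CGP against 9.37, 9.61 and 9.33 in CON, a 3.76-fold fall (−1.91 ± 0.08, adjusted p = 1.49e-08). No other gene of the 19 of glycinergic neurons, hindbrain and spinal cord was a DEG, and the glycine receptor gene Glra1 fell (−0.24 ± 0.05), but did not pass without the first or second array of ASP+CGP or CON. CON stood alone on Slc6a5, as the gene had −1.43 in ASP and −2.03 in CGP relative to the same CON arrays. ASP+CGP had −0.48 relative to ASP (adjusted p = 0.00213) and did not pass against CGP (0.12, adjusted p = 0.531). Bpifa1 and Lamp5 followed the same course. Bpifa1, a secreted protein of the airway, had 6.82, 6.90 and 6.96 in ASP+CGP and 7.84, 7.73 and 8.05 in CON (−0.98 ± 0.07), beside −1.04 in ASP and −0.88 in CGP. Lamp5, a membrane protein of cortical interneurons, had 9.20, 9.22 and 9.09 in ASP+CGP and 9.71, 9.79 and 9.60 in CON (−0.53 ± 0.06), beside −0.54 in ASP and −0.58 in CGP, and missed the fold threshold without the second CON array (−0.49).

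Genes of secretory epithelium gave 3 downregulated DEGs of 14, Bpifa1, Lcn2 and Cyp2f2, with a list median of −0.0011. Lcn2, the iron-siderophore binding lipocalin 2, had 7.34, 7.32 and 7.36 in ASP+CGP and 8.11, 8.10 and 8.24 in CON, a 1.75-fold fall (−0.81 ± 0.06, adjusted p = 5.64e-06). It did not pass the test in ASP (0.09, adjusted p = 0.488) or CGP (−0.06, adjusted p = 0.738) vs CON, and was a DEG in ASP+CGP against both. Cyp2f2, an airway cytochrome P450, had 8.12, 7.95 and 7.89 in ASP+CGP and 8.65, 8.72 and 8.67 in CON (−0.69 ± 0.05), while it stood 0.63 above CON in ASP. Epcam, the epithelial adhesion molecule, fell (−0.37 ± 0.07) and stood at 1.05 in ASP and 0.65 in CGP. Oacyl, of the acyltransferase family, behaved likewise, with 7.29, 7.28 and 7.33 in ASP+CGP, 7.87, 7.93 and 7.84 in CON (−0.58 ± 0.05), 0.36 in ASP and 0.29 in CGP. Cyp2f2, Epcam and Oacyl thus shared with the hormone genes values above CON in both single treatments and below CON in their combination.

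**Figure D4:**
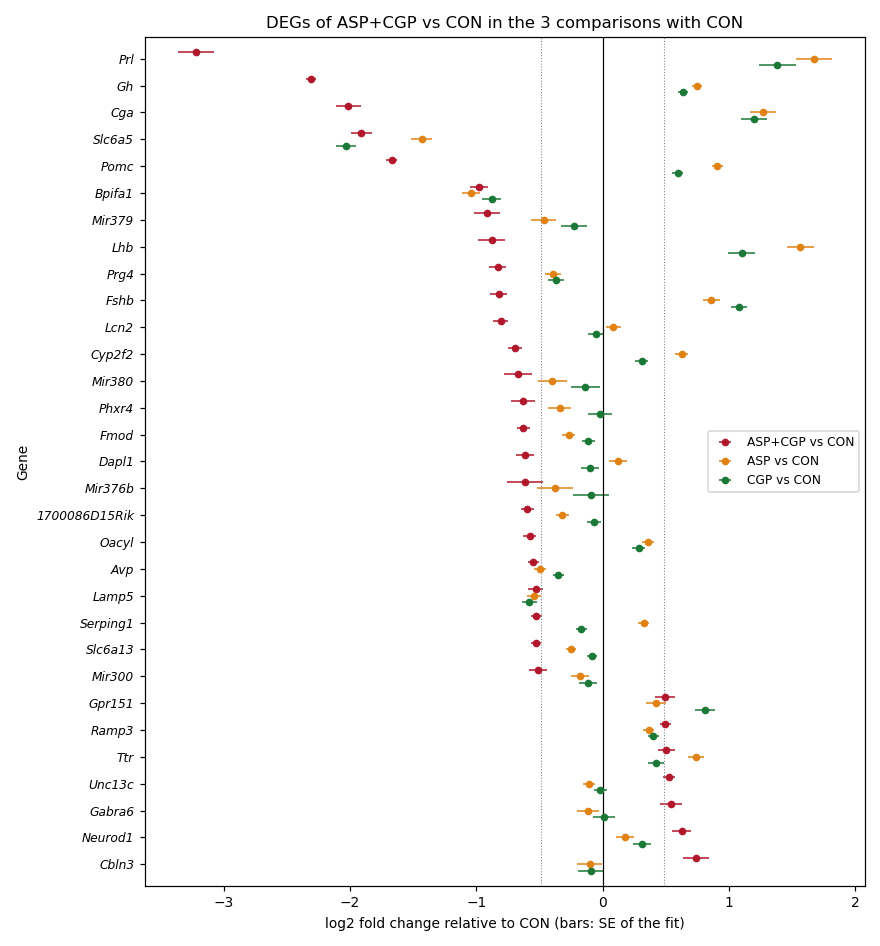
Log2 fold change relative to CON (x axis, bars for the SE of the fit) of the 31 DEGs of ASP+CGP vs CON (y axis) in ASP+CGP, ASP and CGP; dotted lines mark a fold change of 1.4, and the comparisons share the CON arrays. The hormone genes lie left of 0 in ASP+CGP and right of it in ASP and CGP, for Prl at −3.22, 1.68 and 1.38, while Slc6a5, Bpifa1 and Lamp5 lie left of 0 in all 3.

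The miRNA genes whose sequences are given above lie in an imprinted cluster between Dlk1 and Dio3, from which long maternal transcripts give rise to many hairpins. The cluster was singled out after the values were seen, so the counts are a description. Of its 36 measured miRNA genes, 4 were DEGs, 13 fell, 33 lay below 0 and the median was −0.27. Among the other 152 miRNA genes on the array, 0 were DEGs, 1 fell and the median was 0.02. Mir379 had 6.42, 6.32 and 6.10 in ASP+CGP and 7.25, 7.19 and 7.15 in CON, a 1.89-fold fall (−0.91 ± 0.10, adjusted p = 0.00027). Mir380 had 6.88, 6.74 and 7.29 in ASP+CGP and 7.75, 7.51 and 7.67 in CON (−0.67 ± 0.11, adjusted p = 0.00655), and did not pass with the ASP+CGP and CON arrays fitted alone (adjusted p = 0.0974) or without moderation of the variance (adjusted p = 0.0626). Both lay clear of the CON arrays, but Mir380 narrowly so on the third array. Mir300 gave 8.05, 8.13 and 7.83 in ASP+CGP and 8.51, 8.50 and 8.54 in CON (−0.51 ± 0.07, adjusted p = 0.00157), and missed the fold threshold without the third ASP+CGP array (−0.43).

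Mir376b had 7.76, 7.76 and 7.38 in ASP+CGP and 8.56, 8.32 and 7.87 in CON (−0.61 ± 0.14, adjusted p = 0.0457), and the third array was the lowest in both groups. This call was lost whenever a single ASP+CGP, ASP or CGP array was left out, and without the first or the second CON array (−0.46 and −0.58). Mir411, which shares the seed AUGUAAC with the 3p strand of Mir379, had 6.70, 6.93 and 6.19 in ASP+CGP and 7.42, 7.53 and 6.88 in CON (−0.67, adjusted p = 0.0782). It did not pass the test, but did so with the replicate number as a block. Mir329 (−0.42, adjusted p = 0.00027) and Mir323 (−0.47, adjusted p = 0.00302) fell without reaching the fold threshold. Set against the single treatments, 5 of the 36 genes passed the adjusted p relative to ASP, beside 6.92% of all genes, and 11 relative to CGP, beside 0.978%. The median of the 36 was −0.09 in ASP and −0.01 in CGP relative to CON.

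Long transcripts of the interval were measured too. Meg3 had −0.15 and Rian −0.09, the paternally expressed Rtl1 had −0.15, and none of them passed the test. Of the 7 other genes of the interval only Dlk1 fell, and Dio3, the thyroid hormone deiodinase at its far end, had 0.14. With the ASP+CGP and CON arrays fitted alone 4 of the 36 miRNA genes fell, and 8 to 15 did with single arrays left out. Phxr4 and 1700086D15Rik, of no described role here, were the DEGs that remain. Phxr4 had 6.97, 7.09 and 6.62 in ASP+CGP and 7.54, 7.47 and 7.57 in CON (−0.63 ± 0.09). It did not pass with these arrays fitted alone (adjusted p = 0.054) and missed the fold threshold without the third array of both groups (−0.47). The gene 1700086D15Rik had 6.58, 6.69 and 6.76 in ASP+CGP and 7.30, 7.27 and 7.25 in CON (−0.60 ± 0.05). In CGP they stood at −0.02 and −0.07 relative to CON.

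**Figure D5:**
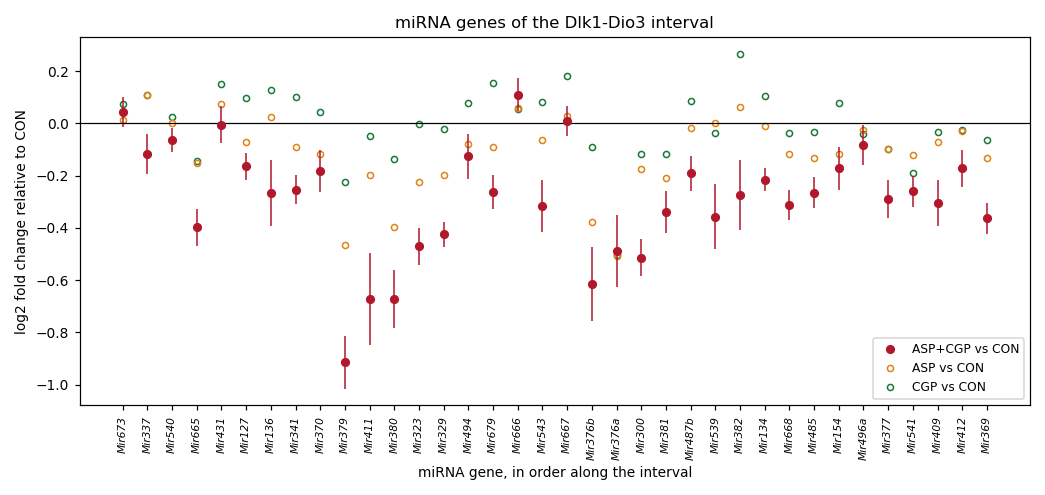
Log2 fold change relative to CON (y axis) of the 36 measured miRNA genes of the Dlk1-Dio3 interval in their order along the chromosome (x axis), filled for ASP+CGP (bars for the SE of the fit) and open for ASP and CGP. In ASP+CGP 33 genes lie below 0, the lowest being Mir379 at −0.91, and the median is −0.27 against −0.09 in ASP and −0.01 in CGP.

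CGP 39551 blocks the NMDAR, whose subunit genes were therefore looked at by name. Of 6 measured, 0 passed the adjusted p in limma, and the median was 0.06. Grin2b had 10.52, 10.52 and 10.34 in ASP+CGP and 10.36, 10.37 and 10.02 in CON (0.21 ± 0.08, adjusted p = 0.253), and Grin2a had 0.08 ± 0.04. In both pools the third Grin2b array was the lowest. Grin1 was not analysed here. Of 26 other glutamate receptor and transporter genes 1 rose, the vesicular transporter gene Slc17a7, with 10.45, 10.44 and 10.21 in ASP+CGP and 9.95, 10.05 and 9.86 in CON (0.41 ± 0.06, adjusted p = 0.00412). Without the third array of both groups 6 of the 26 rose, and without that of ASP+CGP 5 did.

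In GABA signalling 4 of 20 genes rose and 3 fell. Gabra6 was among the 4 and passed the signal filter only through the ASP+CGP arrays. Besides Gabra6 and Gabrd, the receptor subunit genes Gabra4 (0.40 ± 0.04, adjusted p = 0.000171) and Gabrb2 (0.25) rose, whereas Gabra5 (−0.18), Gabrq (−0.20) and Slc6a13 fell. Without the second ASP+CGP array or the first or second CON array 1 fell. Slc6a12, a related betaine and GABA transporter, had 8.72, 8.73 and 8.57 in ASP+CGP and 9.07, 9.19 and 9.03 in CON (−0.42 ± 0.05). Of 14 striatal genes 2 rose, the dopamine signalling genes Ppp1r1b (0.27) and Pde10a (0.26), both of which also passed against CGP (0.46 and 0.33). Against CON, 0 of the 14 passed without the first ASP+CGP array or with the ASP+CGP and CON arrays alone, and 1 did without the first CON array. Of 18 genes of cortex and hippocampus, Slc17a7 and Nrn1 (0.30) rose and Lamp5 and Ccn3 (−0.38) fell. Only 1 rose without the first ASP+CGP array, the second ASP array, any CGP array, or the first or second CON array.

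The genes of peripheral tissue that stood out in ASP did not do so in ASP+CGP. Of 14 adrenal cortex genes 0 passed the adjusted p in ASP+CGP vs CON, with a median of 0.04, beside a median of 2.20 in ASP. Cyp11b1, the 11 beta-hydroxylase, averaged 6.48 in ASP+CGP and 6.36 in CON (0.12 ± 0.06, adjusted p = 0.367), and ASP+CGP had −5.93 relative to ASP. Likewise 0 of 9 genes of the adrenal medulla, 0 of 15 of the exocrine pancreas and 1 of 18 of adipose tissue passed. The last was Lpl, the lipoprotein lipase gene (0.22 ± 0.05), which stood at 2.01 in ASP. None of 16 immediate early genes (median −0.0050), 16 monoamine neuron genes, 6 neurosteroid genes or 15 respiratory chain and reference genes passed the adjusted p. Actb, a reference gene, had an adjusted p of 0.978. Of 15 genes of endothelium and blood, Lcn2 fell. In each of 6 further lists, 1 gene passed at the adjusted p, Zbtb16 of the glucocorticoid response (−0.26), Rora of the clock (0.28), Ermn of oligodendrocytes (0.32), Itih3 of astrocytes (−0.22), Gpr50 of tanycytes (−0.34) and Nqo1 of the antioxidant response (−0.22). Of these, Zbtb16, Ermn, Itih3 and Nqo1 did not pass in some of the fits that left out an ASP+CGP or CON array, and neither did Lpl.

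Of the 269 genes that passed the adjusted p but not the fold threshold, 135 were higher and 134 lower. Just under the threshold among those that fell were Mgp, Apex2 and Fndc3c1 (−0.48 each), Mir323, Ccn2, a matricellular growth factor (−0.45), and Emp3 (−0.43). Among those that rose they were Prkcd (0.47), Shox2 and Chrnb4 (0.46 each), and Tnnt1, Gng8 and Edaradd (0.42 each). Of the upregulated DEGs, Cbln3 (0.74) and Neurod1 (0.63) lay furthest from it and kept their call in all alternatives at this threshold. Without the second CON array only 3 genes were called higher, as Gabra6, Gpr151, Ramp3, Ttr and Unc13c were lost, and 28 genes were called in all.

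Over all genes, the direct tests of the combination returned 219 genes called in ASP+CGP vs ASP (1.27%), 28 in ASP+CGP vs CGP (0.163%) and 257 in the interaction (1.50%). Of the genes called against ASP, 213 were lower in ASP+CGP. Among them were 12 of 14 adrenal cortex, 12 of 15 exocrine pancreas and 13 of 18 adipose genes. Relative to CON these lists had medians of 2.20, 1.07 and 1.73 in ASP, but 0.04, 0.05 and 0.03 in ASP+CGP. In the interaction 12, 13 and 13 of their genes were called. Of the 31 DEGs, 14 were called against ASP, 18 against CGP and 13 against both. The median signal of the arrays was 8.28 to 8.30 in ASP+CGP and 8.30 to 8.34 in CON. Arrays correlated across probe sets at r = 0.9952 to 0.9983 within the pools and 0.9936 to 0.9968 between them, and the third array of each deviated furthest from its pool mean, with an SD of 0.0996 in ASP+CGP and 0.0903 in CON against 0.0601 to 0.0701 on the others. Without both, 38 genes were called, 11 higher, and 29 of the 31 DEGs remained, Mir300 and Phxr4 being lost.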

How the data were processed

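Hypothalamic RNA of 4 groups, pooled per group, was measured on 3 Affymetrix Mouse Gene ST arrays each; groups and replicate numbers came from the labels. Each deposited value is the log2 signal of a probe set, which the authors made with RMA in Partek (background correction, quantile normalization, median polish). Quantile normalization removes a change shared by most genes, and background understates changes of dim genes. Of 29149 probe sets, 19019 had a single symbol in the platform annotation; 1197 had several and 8933 none. Of the single-symbol ones, 18810 reached a log2 signal of 6 on 3 or more arrays and were used, and a gene was represented by its probe set of highest mean.

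All 12 arrays were fitted with limma 3.58.1 in R 4.3.3 (lmFit, eBayes, a mean per group, 8 residual and 5.43 prior degrees of freedom). Values after ± are standard errors. Precision is limited by having few arrays and a single pool per group, too few for an exact permutation test to pass the threshold. The fit was tested on simulated data. The simulated noise was independent between arrays, unlike the correlated deviations described below, so that test cannot speak to error rates under them. Gene lists (38) and members were chosen with earlier results of these data known. Named genes were all DEGs, up to 4 genes of each list with the smallest p at adjusted p under 0.05 (else up to 2 with the largest change), genes named by the study, Actb, NMDAR subunits, and the 10 largest rises and falls below the fold threshold; other list members, the remaining genes of the Dlk1-Dio3 interval and Tshb were named after their values were seen.

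The deviations of same-numbered ASP+CGP and CON arrays from their group means correlated at 0.170, 0.256 and 0.541, so the numbers were used as a block in an alternative fit, but the first ASP+CGP array correlated more with the second CON array (0.421), and the labels name no shared batch. Alternatives covered signal filters, probe set rules, normalization, array weights, adjustment, fold threshold, the block and each array left out. Motifs and sequences used RefSeq tables of GRCm38.p6.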

Additional observations from a re-analysis of the deposited data

Results flagged for a closer look

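For 19 of the 31 DEGs the interaction of aspartame and antagonist was itself called, which is to say that the ASP+CGP minus ASP difference departed from the CGP minus CON difference. On the log2 scale it was −6.28 for Prl, −4.48 for Cga, −3.69 for Gh, −3.54 for Lhb, −3.17 for Pomc and −2.76 for Fshb. It was −1.63 for Cyp2f2, −1.22 for Oacyl, −0.838 for Lcn2, −0.683 for Serping1 and −0.64 for Dapl1. Among genes higher in ASP+CGP it was −0.736 for Gpr151 and −0.662 for Ttr, against 0.645 for Gabra6, 0.652 for Unc13c and 0.936 for Cbln3. It was 1.55 for Slc6a5, 0.943 for Bpifa1 and 0.594 for Lamp5, which were lower in each treated pool than in CON.

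Of the probe sets without a single symbol, 9710 passed the signal filter. Fitted alike, 4 of them, all without a symbol, passed both thresholds in ASP+CGP vs CON. Probe set 10598064 was higher, at 9.37, 9.30 and 9.32 in ASP+CGP and 8.13, 8.05 and 8.15 in CON (log2 fold change 1.22). Probe sets 10433428, 10341724 and 10338224 were lower (−0.663, −0.642 and −0.525).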

How the results depend on the processing

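Of the 31 DEGs, 21 kept their call under every alternative that measured them at the fold threshold of 1.4, including the hormone genes, Slc6a5, Avp, Prg4, Fmod, Cbln3 and Mir379. A fold over 2 left 0 genes higher and 5 lower, 74 against ASP, 8 against CGP and 86 in the interaction. Array weights gave 11 higher, and so did leaving out the third array of both groups. At the adjusted p alone, 142 genes higher and 158 lower became 26 and 42 with the ASP+CGP and CON arrays fitted alone, 729 and 535 with array weights, and 435 and 252 without the third array of both groups, and 228 were higher with arrays set to the same median. With single arrays left out, 3 to 9 genes were called higher and 23 to 28 lower, 64 to 307 were higher and 78 to 199 lower at the adjusted p alone, 219 to 225 were called against ASP, 23 to 31 against CGP and 248 to 289 in the interaction. The cause was not tested.

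With the replicate number as a block, all 31 calls remained over 12 arrays (32 called, Mir411 being new) and over the ASP+CGP and CON arrays alone (33 called, Mir376a also new), where 66 genes were higher and 78 lower at the adjusted p alone.

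Genes near 0 changed sign. Actb had −0.034 to 0.052 with single arrays left out, and 0.014 with arrays set to the same median, 0.032 with array weights, 0.052 without the third ASP+CGP array, 0.028 without the second CON array and 0.024 without the third array of both groups. Grin2d had −0.168 to 0.016, with 0.016 without the third ASP+CGP array. Grin2c had −0.012 to 0.060, with −0.012 without the second ASP+CGP array and −0.00063 without the third CON array. With few arrays, small differences in dim genes were not detectable.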
